A study of Mus musculus with 6 samples.

Results

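Transcripts of the Hippo pathway's output arm and of its target genes were followed in mouse heart under lunar gravity. The set comprised Yap1, Wwtr1, Tead1, Lats2, Amotl2, Ajuba, Ctgf, Cyr61 and F3, which are 9 of the 49585 genes in the deposited expression table, taken by their gene symbols. They were chosen with earlier results of these data known. All 9 had enough reads to be tested.

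The Hippo pathway is a kinase cascade that senses cell density, tension and the state of the actin cytoskeleton. When it is active, the kinases LATS1 and LATS2 phosphorylate YAP (gene Yap1) and its paralog TAZ (gene Wwtr1), which are then held in the cytoplasm or degraded. When it is inactive, YAP and TAZ enter the nucleus and, bound to TEAD factors, switch on genes such as Ctgf and Cyr61, and in the heart this activity is known for driving cardiomyocyte proliferation before birth. YAP and TAZ are regulated mainly as proteins, by phosphorylation and location, which RNA sequencing does not measure.

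The mice were males of 8 or 9 weeks, and heart was the tissue sequenced. Of 6 libraries, 3 were from ground controls kept at 1 g (GC1, GC2 and GC3) and 3 from mice held on the International Space Station at 0.167 g by centrifugation (31 rpm, radius 15 cm; LG1, LG2 and LG3, titled PG). The strain is given for the ground controls, which were C57BL/6 J with 6 mice per mission, housed as on the station. The labels name no genetic change and no drug in either group. Whether a library stands for 1 mouse is not stated, and the p-values therefore reflect how much the libraries of a group varied, which may be technical in part. A group flown at 1 g was not analysed here, and lunar gravity cannot be told apart from everything else about the flight. The column headers place GC3 with the lunar gravity libraries, while its title calls it a ground control. The title was followed, and values without GC3 are given beside the exon results for the 9 genes. For calls of listed genes in exon reads, the text states whether they held without GC3, except for Actc1, Pln and Acta2.

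Powdered heart was used, so each library mixes all cell types of the organ. Total counts ranged from 6461213 to 8271553 per library, and mitochondrial genes took 16.3% to 18.3% of them. Ribosomal RNA was depleted from about 500 ng of total RNA without selection for poly(A) being described, and the libraries held 60.6 to 75.8 unique intron reads per 100 counts. Cardiomyocyte markers were present in every library, and 3 of 8 fell under lunar gravity, which were the ryanodine receptor Ryr2 (adjusted p = 0.00029), the myosin heavy chain Myh6 (adjusted p = 0.00037) and the cardiac actin Actc1, while 1 of 8, the calcium pump regulator Pln, rose. Only 14.9% of Pln exon reads and 71.1% of Actc1 exon reads were placed at a single position, so both calls are uncertain. The summed level of the 8 markers was 59256 to 60162 CPM in ground controls and 46996 to 52417 CPM under lunar gravity, with no overlap. This sum weighs the most abundant transcripts most. The median log2 fold change of the 8 was -0.02, with 3 of 8 above 0. In intron reads, 2 of 6 tested cardiomyocyte markers fell (Ryr2 and Myh6) and 0 rose. The intron log2 fold changes of the 6 ran from -1.18 to -0.17, with a median of -0.30. The groups were separate, with lunar gravity lower, in 5 of the 6, against 10.1% of all genes tested in intron reads. All 6 skeletal muscle markers and all 3 adipocyte markers were below the level tested, with at most 12 and 10 counts in any library.

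TEAD factors bind the letters CATTCC, or GGAATG on the other strand. Both strands of the RefSeq promoter windows (GRCm38.p6, 250 bases before to 50 after the transcription start) were searched for these letters. Windows were at hand for 7 of the 9 genes, and those of Tead1 and Ctgf were not analysed here. These 7 genes have 9 windows, and the letters were present in 7 of the 9, against 14.7% of 32851 mouse promoter windows. The 7 windows belong to 6 genes, all except F3, and both Wwtr1 windows hold the same site. The sites are printed below to show how far the likeness extends beyond the core. Each runs 5′ to 3′ on the strand that reads CATTCC, with the core in capitals and 10 bases on either side. Distances are from the transcription start to the first base of the core on the gene's strand.
Yap1, 141 bases before the start, chr9:8004722-8004747, plus strand: cgcgtcgctaCATTCCtgcagactcc
Wwtr1, 136 bases before the start of its first window, chr3:57576031-57576056, plus strand: cgcctatctgCATTCCtttgagttta
Lats2, 4 bases after the start of its first window, chr14:57746104-57746129, plus strand: acattgttggCATTCCacgggcgtca
Cyr61, 103 bases before the start, chr3:145650073-145650098, minus strand: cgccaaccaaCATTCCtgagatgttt
Amotl2, 65 bases before the start, chr9:102717729-102717754, plus strand: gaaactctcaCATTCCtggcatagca
Ajuba, 186 bases before the start, chr14:54577832-54577857, minus strand: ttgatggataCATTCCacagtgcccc
Ajuba, 164 bases before the start, chr14:54577810-54577835, minus strand: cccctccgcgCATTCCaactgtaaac

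Cyr61 and F3, the 2 genes that passed the test in exon reads, differ in these windows. The Cyr61 window lies at chr3:145649936-145650235 on the minus strand, and the F3 window at chr3:121723287-121723586 on the plus strand. The F3 window holds no CATTCC, and instead holds TGAGTCA, a binding sequence of the AP-1 factors (Fos and Jun proteins), at position -135. That sequence, or TGACTCA on the other strand, is present in 5.20% of all windows and in no other window of these genes. None of the 9 windows contained a CArG box, the serum response factor site, which is present in 1.63% of all windows. No window of these genes held both the TEAD and the AP-1 letters. A match of letters describes the sequence and does not show that a factor binds there.
Cyr61 promoter, core of the TEAD letters in capitals: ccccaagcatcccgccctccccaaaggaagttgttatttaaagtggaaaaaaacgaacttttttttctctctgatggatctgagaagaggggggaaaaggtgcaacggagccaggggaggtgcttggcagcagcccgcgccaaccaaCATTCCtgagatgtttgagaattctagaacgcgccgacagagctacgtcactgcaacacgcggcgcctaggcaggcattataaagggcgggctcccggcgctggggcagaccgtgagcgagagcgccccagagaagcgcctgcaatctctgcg
F3 promoter, AP-1 letters in capitals: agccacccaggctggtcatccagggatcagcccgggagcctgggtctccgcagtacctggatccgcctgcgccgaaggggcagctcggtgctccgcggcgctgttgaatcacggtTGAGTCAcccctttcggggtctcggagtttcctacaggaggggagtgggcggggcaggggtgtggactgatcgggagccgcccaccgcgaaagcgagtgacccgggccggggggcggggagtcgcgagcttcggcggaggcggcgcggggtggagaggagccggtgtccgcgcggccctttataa

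Per exon length, the 9 genes covered a wide range in heart. Levels are compared here as the deposited RPKM (reads scaled by exon length and library size), averaged over all 6 libraries. Tead1, the DNA-binding partner of YAP, had the highest mean, 18.5 ± 1.10 RPKM (SD, n = 6). Cyr61 and Ctgf, the secreted target proteins also known as CCN1 and CCN2, followed at 17.6 ± 1.78 and 16.1 ± 3.84 RPKM. Wwtr1 stood at 11.9 ± 1.28 and Yap1 at 7.05 ± 0.618 RPKM, so that Wwtr1 was the higher per exon length. This order rests on the annotated exon lengths, 4779 bases for Wwtr1 and 9257 for Yap1. In counts Yap1 was the higher in every library, with means of 1001 and 873. Which transcripts were expressed was not tested. The Yap1 level was 0.606 ± 0.0234 of the Wwtr1 level in ground controls and 0.583 ± 0.0137 under lunar gravity (SD, n = 3 each). Amotl2 was at 7.11 ± 0.675, Lats2 at 4.84 ± 0.547, F3 at 3.39 ± 0.828 and Ajuba at 1.41 ± 0.174 RPKM.

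The order of these top genes differed by group. In ground controls Cyr61 (18.6 ± 0.984 RPKM) had a higher mean than Tead1 (17.8 ± 0.984 RPKM), and under lunar gravity Ctgf (19.0 ± 3.39 RPKM) had a higher mean than Cyr61 (16.6 ± 1.97 RPKM; SD, n = 3 each). In the order over all libraries, the ranges of Tead1 and Cyr61, of Cyr61 and Ctgf, and of Amotl2 and Yap1 overlapped, and neither neighbour was higher in every library. The ranges of Ctgf and Wwtr1 and of Lats2 and F3 also overlapped over the 6 libraries, but within each library Ctgf was above Wwtr1 and Lats2 above F3. The steps from Wwtr1 to Amotl2, from Yap1 to Lats2 and from F3 to Ajuba were larger than the spread between libraries.

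**Figure D1:**
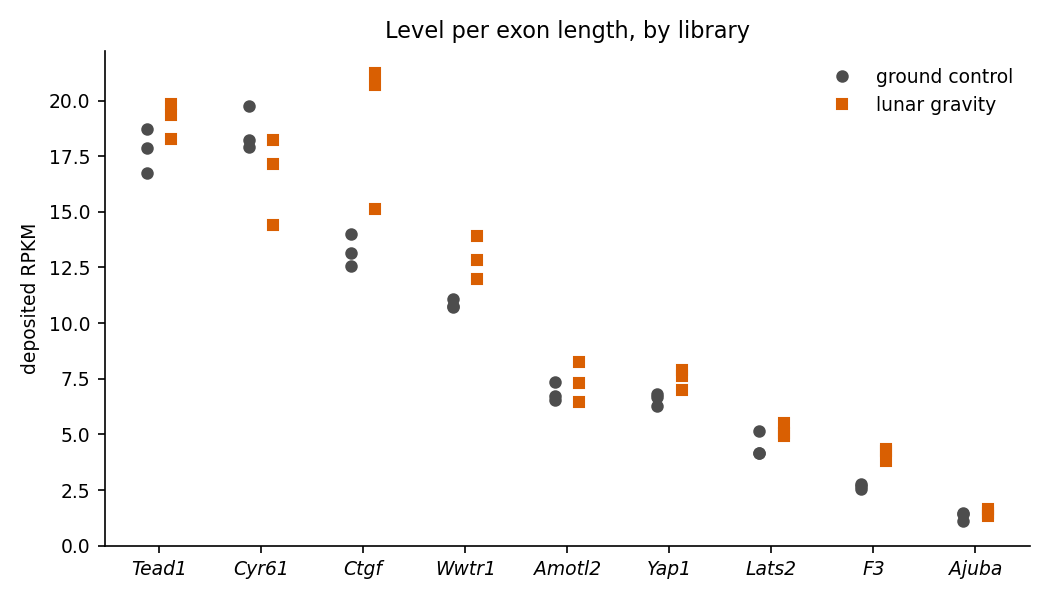
Deposited RPKM of the 9 genes, ordered by their mean over all libraries, with 1 point per library (ground control and lunar gravity in separate colours). RPKM serves here to compare genes. Tead1 averaged 17.8 RPKM in ground controls and 19.1 RPKM under lunar gravity, but 437 and 433 CPM, and the groups are compared in CPM below. Tead1, Cyr61 and Ctgf share the top of the range and Ajuba lies lowest, between 1.13 and 1.66 RPKM.

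Expression in each library is given below as counts scaled to library size (CPM, with TMM factors). Between the groups, 2 of the 9 genes passed the test: F3, which encodes tissue factor, the cell-surface starter of blood coagulation, rose 1.43-fold, and Cyr61 fell 1.22-fold. The other 7 genes did not pass, among them both coactivators, Tead1 and Lats2. Of all 12258 genes tested, 3.77% passed (1.56% higher and 2.21% lower under lunar gravity), by edgeR's quasi-likelihood test with a Benjamini-Hochberg adjusted p under 0.05 over all genes. The ranges of both groups were separate in 4 of the 9 genes (Wwtr1, Ctgf and F3 higher, Cyr61 lower), against 20.6% of all genes tested (9.97% higher and 10.6% lower). Because the 9 genes were chosen with earlier results of these data known, the shares over all genes are given as a description. They do not test the set. The median log2 fold change of the 9 genes was 0.07, against 0.00067 for all genes tested. Without GC3, the log2 fold change was 0.05 for Yap1, 0.13 for Wwtr1, -0.04 for Tead1, 0.04 for Lats2, 0.04 for Amotl2 and 0.10 for Ajuba, and none of these 6 passed (edgeR adjusted p 0.42 to 0.89). In bulk tissue, fewer cells of a type and less RNA per cell cannot be told apart, here and in every result that follows.

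**Figure D2:**
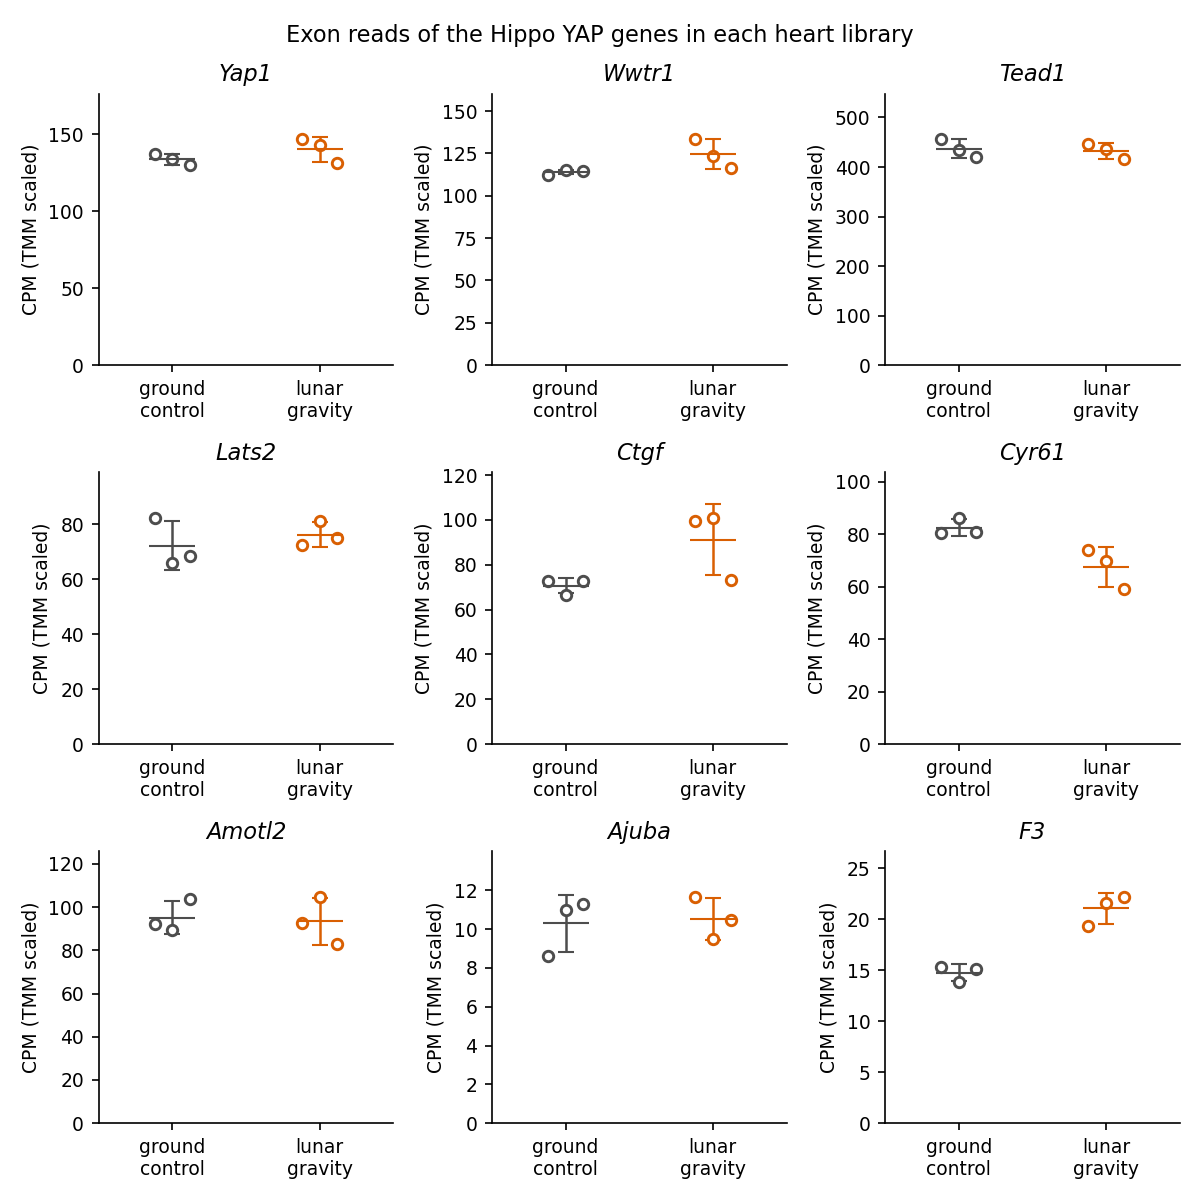
Exon reads of the 9 genes as TMM-scaled CPM, with 1 point per library and the mean and SD of each group of 3. F3 is higher in all lunar gravity libraries (19.4 to 22.2 CPM) than in all ground controls (13.8 to 15.3 CPM), and Cyr61 is lower in all of them.

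Yap1 (chr9:7931999-8004596) encodes YAP, the coactivator restrained by the pathway. Its exon reads were 137, 134 and 130 CPM in GC1, GC2 and GC3, and 147, 143 and 131 CPM in LG1, LG2 and LG3. LG3 lay among the ground controls, and the log2 fold change was 0.07 (SE 0.061, edgeR adjusted p = 0.66).

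Wwtr1 (chr3:57455649-57575910) encodes TAZ, the paralog of YAP. It was at 112, 115 and 115 CPM in GC1 to GC3 and at 134, 124 and 116 CPM in LG1 to LG3. The groups did not overlap, but LG3 was close to GC2 and GC3, and the log2 fold change of 0.13 did not pass the test (SE 0.063, edgeR adjusted p = 0.34).

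Tead1 (chr7:112679318-112906807) encodes a TEAD factor that carries YAP and TAZ to DNA. It was at 457, 434 and 420 CPM in the ground controls and 446, 437 and 415 CPM under lunar gravity. The groups overlapped along nearly their whole range, with a log2 fold change of -0.01 (SE 0.054, edgeR adjusted p = 0.94).

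Among the regulators, Lats2 encodes a kinase that phosphorylates YAP and TAZ and is itself induced by YAP. It was at 82.3, 66.0 and 68.4 CPM in the ground controls and 72.3, 81.3 and 75.0 CPM under lunar gravity. The single highest library was a ground control, and the log2 fold change was 0.08 (SE 0.081, edgeR adjusted p = 0.73). The Lats2 row spans chr14:57642077-57758388 and runs 47585 bases past the downstream end of the Lats2 gene of GENCODE M21, which is on the minus strand. It overlaps 2 protein-coding genes on the same strand, Gm49361 by 104027 bases and Xpo4 by 23354 bases, so its counts are uncertain.

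Amotl2 (chr9:102716672-102733418) encodes an angiomotin family protein that binds YAP at cell junctions and is also a YAP target. It was at 92.1, 89.4 and 104 CPM in the ground controls and 92.6, 105 and 82.7 CPM under lunar gravity. LG3 was the lowest and LG2 the highest of all 6 libraries, and the log2 fold change was -0.03 (SE 0.081, edgeR adjusted p = 0.91).

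Ajuba (chr14:54567469-54577661) encodes a LIM protein that binds LATS kinases and restrains them under tension. It had the fewest reads of the 9 genes, at 8.61, 11.0 and 11.3 CPM in the ground controls and 11.7, 9.47 and 10.4 CPM under lunar gravity. The groups overlapped, with a log2 fold change of 0.03 (SE 0.16, edgeR adjusted p = 0.96). Its standard error was the widest of the 9 genes.

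The target genes moved in different directions. Ctgf (chr10:24595442-24598683), a secreted matrix protein widely read as a sign of YAP activity and of fibrosis, was at 72.6, 66.7 and 72.7 CPM in GC1 to GC3 and at 99.6, 101 and 73.1 CPM in LG1 to LG3. LG1 and LG2 stood well above the ground controls, while LG3 was level with the highest of them. The log2 fold change was 0.37 (1.29-fold, SE 0.11), and it did not pass over all genes (edgeR adjusted p = 0.12). It passed in 5 of 18 alternatives. Without LG3 it passed, with a log2 fold change of 0.51 and an edgeR adjusted p of 0.00022. Without GC3 the log2 fold change was 0.39 and the adjusted p 0.22. Nor did Ctgf pass by edgeR without GC1 (adjusted p = 0.22), GC2 (0.31), LG1 (0.27) or LG2 (0.28), taken singly. Of the exon reads of Ctgf, 83.5% were placed at a single position, so some of its reads are shared with other sequence. On the opposite strand, the transcript Gm15270 overlaps Ctgf by 1667 bases and had 49 counts over all libraries.

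Cyr61 (chr3:145646976-145649981), also a secreted matrix protein and like Ctgf a direct target of YAP and TEAD, was at 80.3, 86.3 and 81.0 CPM in GC1 to GC3 and at 73.9, 69.8 and 59.0 CPM in LG1 to LG3. All 3 lunar gravity libraries were below all 3 ground controls. It fell by 0.29 on the log2 scale (SE 0.078, edgeR adjusted p = 0.036), from 82.5 ± 3.28 to 67.6 ± 7.69 CPM (SD, n = 3 each). The call held in 8 of 18 alternatives. The adjusted p was 0.071 without GC1, 0.23 without GC2, 0.065 without GC3 (log2 fold change -0.30), 0.089 without LG2 and 0.16 without LG3, and with DESeq2 it was 0.12.

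Ctgf and Cyr61 are often used together as readouts of YAP. Within each library, the count of Ctgf per count of Cyr61 was 0.904, 0.773 and 0.897 in the ground controls and 1.35, 1.45 and 1.24 in the lunar gravity libraries. Cyr61 had the higher count in every ground control and Ctgf in every lunar gravity library. This ratio was formed after the values of both genes were seen and is given as a description.

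F3 (chr3:121723537-121735048) was at 15.3, 13.8 and 15.1 CPM in GC1 to GC3 and at 19.4, 21.6 and 22.2 CPM in LG1 to LG3. The lowest lunar gravity library exceeded the highest ground control. The group means were 14.7 ± 0.816 and 21.1 ± 1.51 CPM (SD, n = 3 each), a log2 fold change of 0.51 (SE 0.12, edgeR adjusted p = 0.013). Without GC3 it was 0.53 with an adjusted p of 0.030. It did not pass without GC2 (adjusted p = 0.094), without LG2 (adjusted p = 0.064) or with DESeq2 (adjusted p = 0.064). In reads across exon-exon junctions alone, of which F3 had 11.5 to 13.4 CPM, its log2 fold change was 0.17 (adjusted p = 0.88). Those were 17 to 25 reads per library.

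Reads in introns come mostly from RNA that is not yet spliced, and give a second readout of the same genes. Of 11968 genes tested in intron reads, 2.86% passed (0.359% higher and 2.50% lower under lunar gravity). Of the 8 genes of the set that could be tested, 0 passed by edgeR's quasi-likelihood test and 1, Cyr61, had an unadjusted p under 0.05. The ranges of the groups were separate in 1 of the 8, Cyr61, which was higher, against 8.89% of all genes higher and 10.1% lower. Ctgf was not tested, because it had only 0 to 3 unique intron reads per library.

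Cyr61 intron reads went the other way from its exon reads. They were at 31.9, 32.7 and 24.3 CPM of intron reads in GC1 to GC3 and at 58.7, 58.2 and 34.1 CPM in LG1 to LG3. The groups did not overlap, although LG3 was nearer to the ground controls than to LG1 and LG2. The log2 fold change was 0.77 (SE 0.21), which did not pass (edgeR adjusted p = 0.098). It passed without LG3 (0.98, adjusted p = 0.0012) and did not without GC3 (0.64, adjusted p = 0.18).

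Whether the change in exon reads differed from the change in intron reads was tested for each gene by an interaction term in edgeR, with the library as a block. This comparison was chosen after the values were seen. Of 10341 genes, 1.32% passed, most of them with exon reads rising relative to intron reads (1.17%) and few with exon reads falling relative to them (0.155%). Cyr61 was among the latter: its exon change was 1.04 lower than its intron change on the log2 scale (2.06-fold, SE 0.14, adjusted p = 3.5e-05). It was called in each of the 10 alternatives run, with values between -1.23 and -0.92, and without GC3 the value was -0.92 (adjusted p = 0.001). None of the other 7 genes tested passed, with edgeR adjusted p from 0.59 to 0.97.

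In the libraries themselves, Cyr61 had 28.3, 26.6 and 22.1 intron reads per 100 exon reads in GC1 to GC3, and under lunar gravity 54.4 (LG1), 53.8 (LG2) and 35.4 (LG3). Every lunar gravity library was above every ground control. Over all genes the same ratio went down, from 73.5 ± 2.63 in ground controls to 63.5 ± 3.38 under lunar gravity (SD, n = 3 each). In exon-exon reads, which come from spliced RNA, 0 of the 9 genes passed by edgeR, against 2.3% of 8956 genes tested (1.3% lower), and 2 had an unadjusted p under 0.05 (Ctgf and Cyr61). The ranges were separate in Ctgf and F3, which were higher (7.84% of all genes), and in Cyr61, which was lower (8.66%). Cyr61 exon-exon reads were at 45.3, 55.4 and 41.9 CPM in the ground controls and 32.1, 35.5 and 34.6 CPM under lunar gravity. All 3 lunar gravity libraries were again the lower ones, with a log2 fold change of -0.49 that did not pass (SE 0.16, edgeR adjusted p = 0.11). No gene overlaps Cyr61 in the annotation used.

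**Figure D3:**
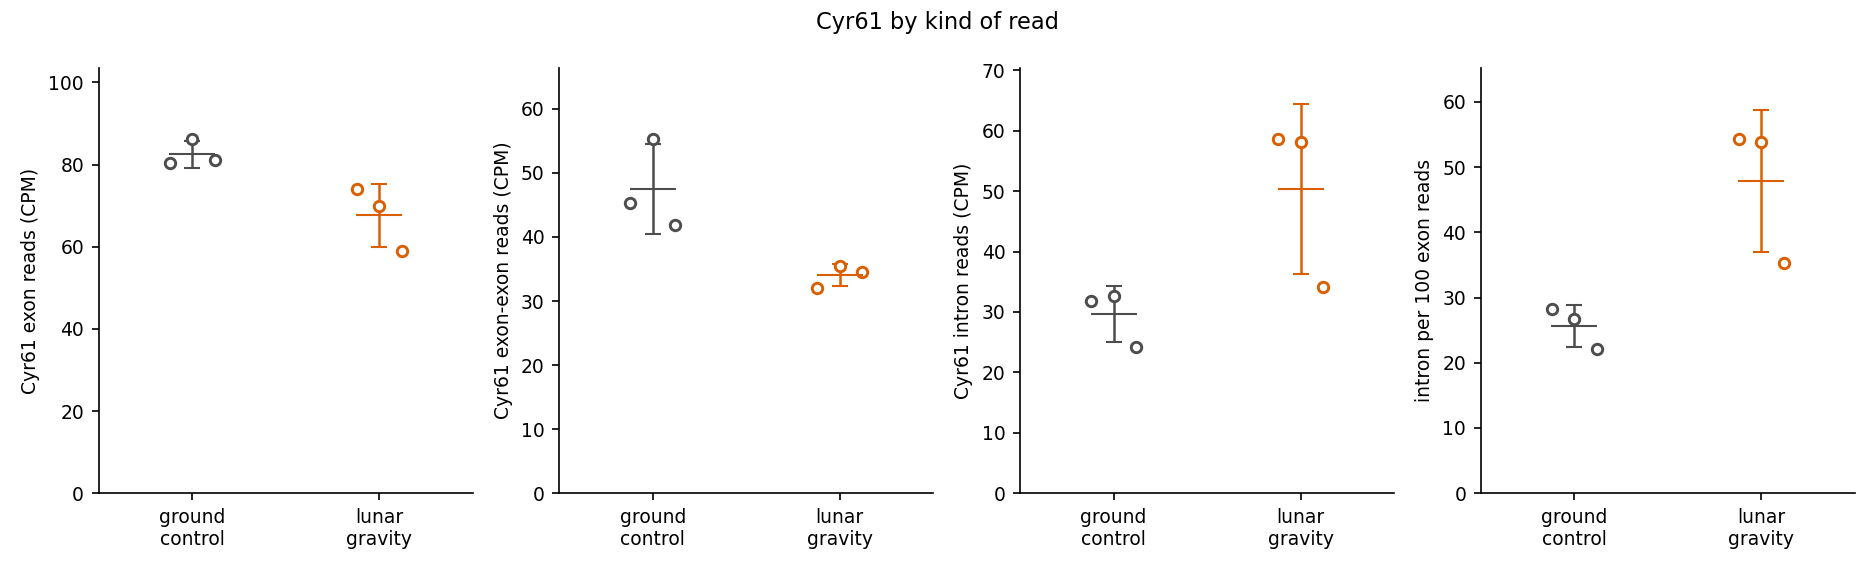
Cyr61 by kind of read, with 1 point per library and the mean and SD of each group of 3: exon reads, exon-exon reads and intron reads in CPM, and intron reads per 100 exon reads. Exon and exon-exon reads are lower under lunar gravity, while intron reads and the ratio are higher in all 3 lunar gravity libraries.

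None of the remaining genes passed in intron reads. Tead1, with a log2 fold change of -0.21, was at 541, 418 and 382 CPM of intron reads in the ground controls and 383, 430 and 347 CPM under lunar gravity. GC1 alone stood above the rest (edgeR adjusted p = 0.49). For Tead1 the log2 fold change in intron reads was -0.31 without GC3 (edgeR adjusted p = 0.21). The log2 fold changes in intron reads were 0.01 for Yap1, 0.07 for Wwtr1, 0.10 for Lats2, -0.10 for Amotl2, 0.32 for Ajuba and 0.12 for F3. The adjusted p of these 6 lay between 0.59 and 0.98. F3, which rose in exon reads, had 30 to 62 unique intron reads per library, so its intron change had an SE of 0.23, and the difference between its exon and intron changes did not pass (0.38, edgeR adjusted p = 0.64).

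**Figure D4:**
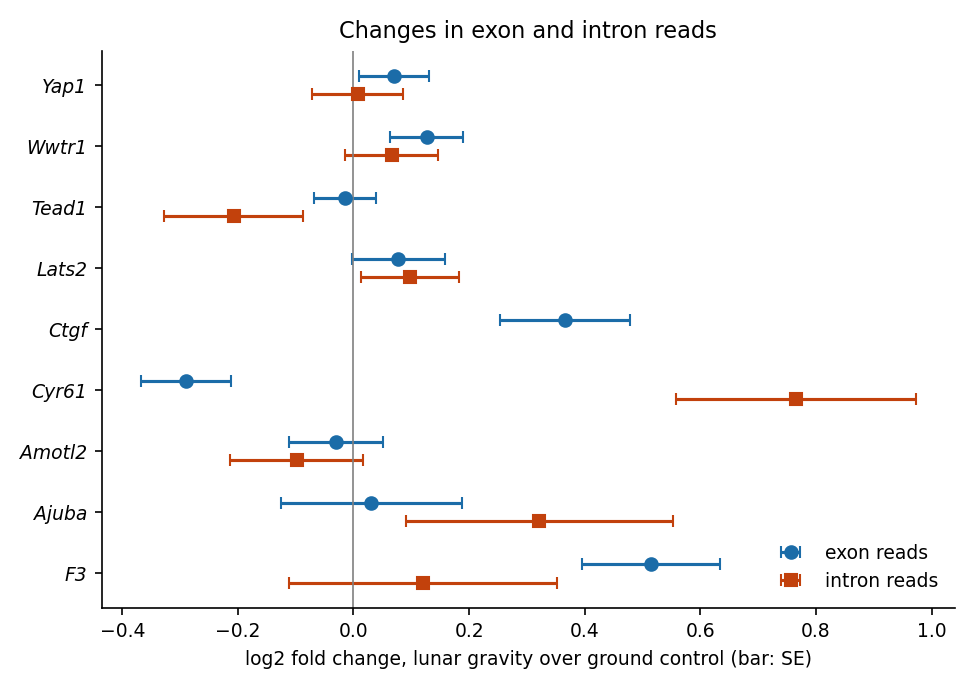
Log2 fold change of lunar gravity over ground control in exon reads (circles) and intron reads (squares) for the 9 genes, with bars of 1 SE; Ctgf has no intron value. The exon and intron points of Cyr61 lie on opposite sides of 0, at -0.29 and 0.77.

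Cyr61 is known as an immediate early gene, one that is switched on within minutes of a stimulus, and the levels of other such genes, among them Fos, Junb and Egr1, are given beside its result. Of 19 such genes tested in exon reads, 4 rose (Fos, Ier2, Junb and Klf4) and 0 fell, with a median log2 fold change of 0.45. The log2 fold change was above 0 in 16 of the 19. The groups were separate in 11, all higher under lunar gravity, against 9.97% of all genes tested. Of all genes tested, 1.56% rose and 2.21% fell. In intron reads 12 of the 19 were tested, of which 9 rose and 0 fell, with a median of 1.09, while 0.359% of all genes rose. The other 7 did not pass the read filter for introns, so this median covers part of the list. The list was chosen with earlier results of these data known, so the shares over all genes are given as a description. With 1 library left out the counts that rose were 2 (without LG2) to 9 (without GC1) in exon reads and 5 (without GC2 or without LG1) to 9 in intron reads. Without GC3, 5 rose (Fos, Ier2, Junb, Klf2 and Klf4) and 1, Atf3, fell in exon reads. The exon count also depended on the fit: it was 8 with DESeq2 or limma voom, 9 with the non-robust fit, 11 with no filter and 1 in exon-exon reads. Their summed exon level was 547 to 713 CPM in the ground controls and 733 to 869 CPM under lunar gravity. The exon change was below the intron change in 12 of the 12 genes tested in both, as it was in Cyr61. The difference passed the test in 1 of them, the antiproliferative gene Btg2 (-1.27, edgeR adjusted p = 1e-05). Over all genes tested the median difference was -0.0086. The part of this group of genes in the Cyr61 result was not tested.

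Upstream of YAP, none of the cascade's genes passed. Of 21 listed regulators, which include the kinases Stk3, Stk4 and Lats1, their cofactors Sav1, Mob1a and Mob1b, and the membrane scaffold Nf2, 20 were tested, and 0 passed by edgeR (2 at an unadjusted p under 0.05). Their median log2 fold change was 0.01. Mob1a, a cofactor that activates LATS kinases, had the smallest p, at 51.0, 54.4 and 42.8 CPM in the ground controls and 62.0, 55.8 and 62.2 CPM under lunar gravity (log2 fold change 0.28, adjusted p = 0.073). It passed with library totals (adjusted p = 0.040) and with no filter (adjusted p = 0.015), and without GC3 its log2 fold change was 0.19 (adjusted p = 0.31). Nf2, the membrane scaffold that recruits LATS, averaged 146 CPM in ground controls and 144 CPM under lunar gravity. Counts at an unadjusted p under 0.05, here and below, are not read as results. For scale, Wwtr1, with an unadjusted edgeR p of 0.058 in exon reads, ranked 2074 by p among all 12258 genes tested.

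The STRIPAK complex, a phosphatase assembly that switches off the kinases at the top of the cascade, had 1 gene that rose and 1 that fell among 17 tested. Strip2, a scaffold of the complex, was at 163, 160 and 151 CPM in the ground controls and 171, 197 and 198 CPM under lunar gravity (log2 fold change 0.26, adjusted p = 0.021). Slmap, the subunit that brings the upstream kinases to the phosphatase, was at 307, 295 and 283 CPM in the ground controls and 256, 252 and 254 CPM under lunar gravity (log2 fold change -0.22, adjusted p = 0.022). In neither gene did the groups overlap, and each call held in 13 of 18 alternatives. Strip2 was lost without GC2, GC3, LG2 or LG3 and Slmap without GC1, GC2 or LG2, taken singly. Ppp2ca, a catalytic subunit, averaged 102 and 98.1 CPM and did not pass (adjusted p = 0.80). Only 48.6% of Ppp2ca exon reads were placed at a single position, so this value is uncertain. SLMAP is also a protein of cardiomyocyte membranes, and the cardiomyocyte markers Ryr2 and Myh6 fell in the same libraries. Their part in the Slmap result was not tested.

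Among the other TEAD factors and their VGLL cofactors, 5 of 7 were tested and 0 passed by edgeR (1 at an unadjusted p under 0.05). Tead2, Tead3 and Tead4 averaged 3.64 to 12.8 CPM in ground controls. Vgll3, a TEAD cofactor, had the smallest p, at 8.45, 8.04 and 6.59 CPM in the ground controls and 7.32, 2.97 and 5.76 CPM under lunar gravity (adjusted p = 0.32). The groups overlapped.

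Of 17 other known YAP targets, 15 were tested, and 1 rose and 2 fell. Their median log2 fold change was 0.10. Igfbp3, a secreted binding protein of insulin-like growth factors, was at 27.4, 22.7 and 28.7 CPM in the ground controls and 43.0, 37.5 and 30.7 CPM under lunar gravity (log2 fold change 0.50, adjusted p = 0.023). Ccdc80, a secreted matrix protein, was at 141, 123 and 115 CPM in the ground controls and 103, 104 and 107 CPM under lunar gravity (log2 fold change -0.27, adjusted p = 0.025). Dock5, an activator of the small GTPase Rac, was at 38.8, 37.8 and 39.3 CPM in the ground controls and 30.8, 32.4 and 30.7 CPM under lunar gravity (log2 fold change -0.30, adjusted p = 0.049). None of these 3 genes had overlapping groups. The Dock5 call held in 3 of 18 alternatives and in none that left out a library, the Ccdc80 call in 10 and the Igfbp3 call in 13. In exon-exon reads the log2 fold change of Igfbp3 was 0.04 (adjusted p = 0.98). Without GC3, Ccdc80 and Igfbp3 passed. Ankrd1, a stretch-responsive cardiomyocyte protein, averaged 544 and 709 CPM and did not pass (log2 fold change 0.38, adjusted p = 0.16). It passed with no filter, with limma voom, with the non-robust fit and without LG1, and was named after its values were seen.

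Of the other CCN family genes, relatives of Ctgf and Cyr61, 3 of 4 were tested and 0 passed by edgeR (0 at an unadjusted p under 0.05). Nov had the smallest p, at 2.82 to 4.37 CPM in the ground controls and 3.97 to 5.40 CPM under lunar gravity (adjusted p = 0.62). Of the partners and inhibitors of tissue factor, 2 of 6 were tested. Thbd, thrombomodulin, an anticoagulant receptor on endothelium, rose from 104, 94.9 and 80.0 CPM in the ground controls to 114, 114 and 113 CPM under lunar gravity (log2 fold change 0.29, adjusted p = 0.028). Tfpi, the inhibitor of the tissue factor pathway, was at 70.2 to 85.0 CPM and 72.3 to 77.5 CPM in the groups and did not pass (adjusted p = 0.91). The Thbd call held in 11 of 17 alternatives and, among the libraries left out singly, only without GC1. F3 and Thbd, which act on coagulation in opposite directions, were thus both higher under lunar gravity.

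Over all these lists, 62 of 72 genes were tested, and 3 rose and 3 fell, against 1.56% and 2.21% of all genes tested. Their median log2 fold change was 0.01. The lists were chosen with earlier results of these data known, so the shares over all genes are given as a description. Of these 62 genes, 0 passed without GC2 or without LG2, 2 without GC1, and 3 without GC3, without LG1 or without LG3. In intron reads 0 of the listed genes passed in either direction by edgeR, while 2 upstream regulators, 3 STRIPAK genes and 5 other YAP targets had an unadjusted p under 0.05. Such p-values were common over all genes: Mob1a, with an unadjusted edgeR p of 0.033 in intron reads, ranked 1335 among 11968 genes.

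**Figure D5:**
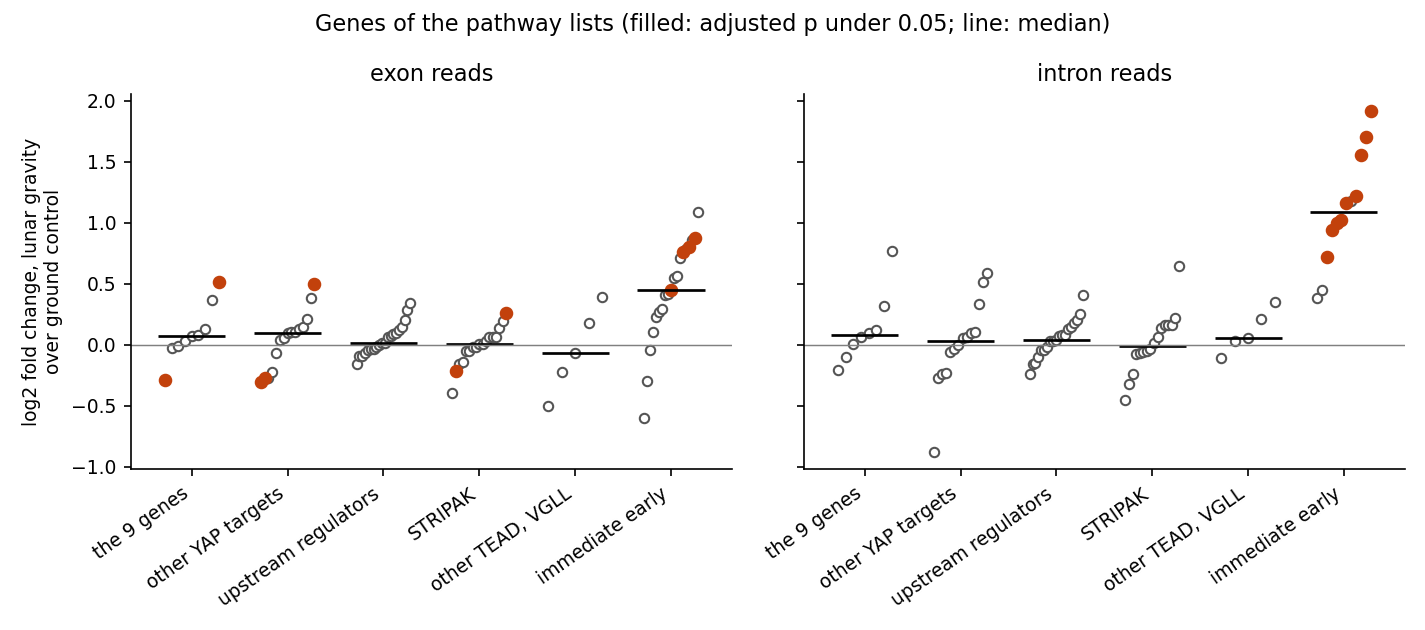
Log2 fold change of lunar gravity over ground control for each tested gene of the lists, in exon reads (left) and intron reads (right), with the median as a line and genes of adjusted p under 0.05 filled. The upstream regulators lie around 0, while the immediate early genes lie mostly above 0, with medians of 0.45 and 1.09.

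Ctgf, Cyr61 and other YAP targets are made by several cell types of the heart, so the levels of cell type markers are given beside these results. Of 7 fibroblast markers tested, 2 fell, Col1a1 (adjusted p = 0.013) and Col1a2 (adjusted p = 0.0069), and 0 rose, and the summed level of the list was 1113 to 1133 CPM in ground controls and 1027 to 1121 CPM under lunar gravity. Of 9 mural cell markers, 2 rose, the pericyte gene Rgs5 (adjusted p = 0.0089) and the smooth muscle gene Tagln (adjusted p = 0.014), and 1, the smooth muscle actin Acta2, fell, with sums of 1911 to 1966 CPM and 2003 to 2138 CPM. Of 8 endothelial markers 0 passed by edgeR (3 at an unadjusted p under 0.05), with sums of 1568 to 1639 CPM and 1505 to 1723 CPM. Of 7 macrophage markers 0 passed (1 at an unadjusted p under 0.05), with sums of 323 to 342 CPM and 296 to 346 CPM. Of 3 epicardial, 2 Schwann cell and 5 red cell genes tested, 0 passed (0 at an unadjusted p under 0.05). The atrial gene Sln rose (log2 fold change 0.39, adjusted p = 0.00066; in exon-exon reads 0.19, adjusted p = 0.76), as 1 of 3 atrial markers. The other 2, Myl4 and Myl7, were lower with separate groups (log2 fold changes from -0.33 to -0.27). Both had an unadjusted p under 0.05 by edgeR but did not pass. The summed level of the 3 atrial markers was 605 to 720 CPM in ground controls and 514 to 623 CPM under lunar gravity. Without GC3, Ryr2, Myh6, Sln, Col1a1, Col1a2, Rgs5 and Tagln still passed. Left out singly, GC1, GC2 or LG2 removed the calls of Col1a1 and Col1a2, GC2 that of Rgs5, and GC1 or LG3 that of Tagln. Col1a1 was also lost in exon-exon reads. Tagln was lost with DESeq2 (adjusted p = 0.063) and in exon-exon reads (log2 fold change 0.23, edgeR adjusted p = 0.63). Only 67.1% of Tagln exon reads were placed at a single position. The part of these markers in the results for F3, Cyr61 and the listed genes was not tested.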

How the data were processed

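Coordinates refer to GRCm38 (mm10), per the submitters' processing notes, and are counted from 1. The authors deposited 1 table with read counts per gene and library (exon, exon-exon and intron reads) and RPKM, per the file headers. The strand setting, annotation release, aligner and counter were not given in the sources used here, so overlapping and antisense genes may share reads. The deposited expression values were tested as counts, and the deposited RPKM only compares levels between genes. In the table, 48 further per-library columns were not used.

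Genes were filtered with filterByExpr (minimum count 10), scaled by TMM and fitted over the whole table by edgeR 4.0.16 (robust quasi-likelihood fit, R 4.3.3), with Benjamini-Hochberg adjustment. A gene rose or fell where the adjusted p was under 0.05. CPM values are scaled by TMM. Unique intron reads were fitted in the same way with their own scaling. The common biological coefficient of variation was 6.20% for exon and 8.78% for intron reads, and the procedure was tested on simulated data, where false calls were a larger share of calls than the threshold implies. DESeq2 1.42.0 and limma 3.58.1 (voom) were alternatives, beside other scalings, filters, read columns and each library left out. Replicate numbers do not pair the libraries.

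The genes of the set and the lists were chosen with earlier results of these data known. Named genes were the 9 genes, up to 3 called genes of each pathway list by p (or the one with the smallest p), and up to 2 called genes of each marker or quality list.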

Additional observations from a re-analysis of the deposited data

How the results depend on the processing

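Exon reads gave 2 called genes of the 9. The count was 3 with no filter (Ctgf, Cyr61 and F3), 2 with the non-robust fit (Ctgf and F3), 1 with library totals or limma voom (F3), 1 with DESeq2 (Ctgf), 0 in exon-exon reads, and 0 to 2 with 1 library left out. Of the pathway list genes 6 were called, 8 with no filter, 7 with the non-robust fit, 3 with DESeq2, 1 in exon-exon reads and 0 to 3 with 1 library left out. Of all genes 462 were called, 765 with no filter, 286 with DESeq2, 206 in exon-exon reads and 219 to 463 with 1 library left out. With library totals, 288 were higher and 193 lower, against 191 and 271. In intron reads 342 genes were called, 847 with the size factors of the exon counts (which moved the median of all genes to -0.14), 672 with no filter and 148 to 545 with 1 library left out. Of the 9 genes 0 were called in intron reads, 1 with no filter and 0 to 1 with 1 library left out, and Cyr61 was that gene. For the difference between exon and intron changes, 137 genes were called and 62 to 225 with 1 library left out. Cyr61 was the 1 gene of the 9 called each time.

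Genes near 0 changed sign. In exon reads, library totals gave a log2 fold change of 0.029 for Tead1 and 0.014 for Amotl2. With 1 library left out, Tead1 lay between -0.041 and 0.020, Amotl2 between -0.12 and 0.052 and Ajuba between -0.076 and 0.10. In intron reads, the size factors of the exon counts gave -0.14 for Yap1, -0.077 for Wwtr1, -0.048 for Lats2 and -0.030 for F3, and Yap1 gave -0.0012 with no filter. With 1 library left out, the intron values lay between -0.020 and 0.046 for Yap1, -0.0094 and 0.12 for Wwtr1, -0.17 and 0.015 for Amotl2, and -0.11 and 0.42 for F3. The causes were not tested.

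Replicate numbers do not pair the libraries, since deviations of same-numbered libraries correlated at 0.0076, -0.054 and 0.045. With a replicate block, 3 of the 9 genes were called in exon reads (Ctgf, Cyr61 and F3) and 1 in intron reads (Cyr61). The block gave 5 pathway list genes, 545 genes in exon reads and 397 in intron reads. Few reads lay behind the exon-exon counts of Ajuba (7 to 13 per library) and F3 (17 to 25), and Ctgf intron reads were too few to test.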
